A study of Mus musculus with 21 samples.

Results

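STAG1 was depleted from mouse embryonic stem cells (mESCs) that already lacked PDS5A, and 6 of the 21 RNA-seq libraries of the series describe the outcome. The members were taken from the sample labels as the 3 Pds5a-KO siStag1 libraries and the 3 Pds5a-KO siGLO libraries, with no use of measured values. Both groups are Pds5a-/- cells of a single CRISPR clone of the male v6.5 mESC line, in which 1 allele of Pds5a carries an insertion with a deletion in exon 2 and the other a longer deletion that reaches the next intron, and both received 50 nM of siRNA for 48 h before poly-A RNA was collected. siStag1 is a commercial siRNA reagent against Stag1, and siGLO is a transfection control. The loss of PDS5A is therefore shared by cases and controls, and clone and genotype cannot be told apart. Levels are compared where useful with 3 Pds5a-/- siStag2 libraries, 3 Pds5a-/- siPds5b libraries and 3 wild-type (WT) siGLO libraries, treated in the same way.

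Cohesin is a ring of SMC1A, SMC3 and RAD21 that holds sister chromatids together and extrudes loops of chromatin. A STAG subunit, STAG1 or STAG2 in somatic and stem cells, binds RAD21 and links the ring to DNA and to CTCF. PDS5A and PDS5B bind the same ring and take part in both its release by WAPL and its acetylation. The comparison asks how transcription responds when a STAG subunit is lowered on top of the missing PDS5 subunit.

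The guides used to make the Pds5a-/- clone are shown because they define the background that all 6 libraries share. Both match exon 2 of Pds5a on the antisense side of the transcript, with TGG and AGG as the adjacent PAMs (GRCm38, GENCODE annotation), at chr5:65696769-65696788 for sgRNA 1 and chr5:65696843-65696862 for sgRNA 2.
Pds5a sgRNA 1: acgtttgatcatttcatcgg
Pds5a sgRNA 2: ccgcactcacgacgccacag

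Total counts were 17939301 to 20791962 in the siStag1 libraries and 20009068 to 21360847 in the siGLO libraries. No pair of libraries held identical counts, and library 1 stood apart from libraries 2 and 3 in both groups: the mean chi-square per gene was 21.7 and 24.5 for siGLO library 1 against libraries 2 and 3 but 8.95 between the latter, with 9.12, 13.4 and 5.23 for siStag1. Nothing in the labels ties a library to its own culture, so p-values measure the spread between libraries of 1 clone. The 10 mESC markers checked, Pou5f1 and Sox2 among them, summed to 6222 to 6591 CPM (read counts scaled to a common library size) after siStag1 and 6274 to 7126 CPM after siGLO. Fibroblast markers summed to 18.3 to 54.3 CPM against 21.9 to 85.0 CPM, primitive endoderm markers to 34.9 to 80.6 against 38.5 to 82.9, trophoblast markers to 14.4 to 18.9 against 17.9 to 27.7, and neuroectoderm markers to 73.2 to 107.2 against 56.8 to 75.9. In bulk RNA, fewer cells of a type and less RNA per cell cannot be told apart.

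Stag1, at chr9:100597798-100959375, checks the labels. It was measured at 126.9, 115.7 and 124.9 CPM in siGLO libraries 1 to 3, and at 31.1, 30.3 and 25.5 CPM in siStag1 libraries 1 to 3. The groups were far apart, and 23.7% of the siGLO level remained (log2 fold change −2.08, standard error (SE) 0.09, adjusted p = 5.54e-14). Here and throughout, CPM is scaled by edgeR's TMM factors, adjusted p is from edgeR's quasi-likelihood test with Benjamini-Hochberg adjustment over 14963 genes, and a gene is called at an adjusted p under 0.01. None of the 8 other tested genes within 1 Mb of Stag1 was called, and their log2 fold changes ran from −0.14 for Ephb1 to 0.21 for Dzip1l.

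Stag2, the X-linked paralog, was measured at 179.7, 147.9 and 165.3 CPM after siGLO and 238.1, 196.4 and 185.5 CPM after siStag1. All siStag1 libraries were higher, but the difference did not pass the test (log2 fold change 0.33, SE 0.10, adjusted p = 0.15). Stag2 had a like value after siPds5b, at 229.6, 202.1 and 197.6 CPM (log2 fold change against the same siGLO libraries 0.35, adjusted p = 0.016). The log2 difference between siStag1 and siPds5b was −0.02 (adjusted p = 0.911). Per kilobase of exon, Stag1 made up 34.4% ± 1.18 (SD, n = 3) of the summed Stag1 and Stag2 level after siGLO and 9.0% ± 0.70 (SD, n = 3) after siStag1. After siStag2 the same share was 68.4% ± 2.74 (SD, n = 3), so Stag1 was the minor STAG transcript after siStag1 and the major after siStag2. Pds5a transcripts were still counted, at 237.4, 232.6 and 207.5 CPM after siStag1, 241.5, 191.1 and 213.9 CPM after siGLO and 265.2, 238.2 and 262.4 CPM in WT cells. A count over the whole gene does not read the edited exon.

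**Figure D1:**
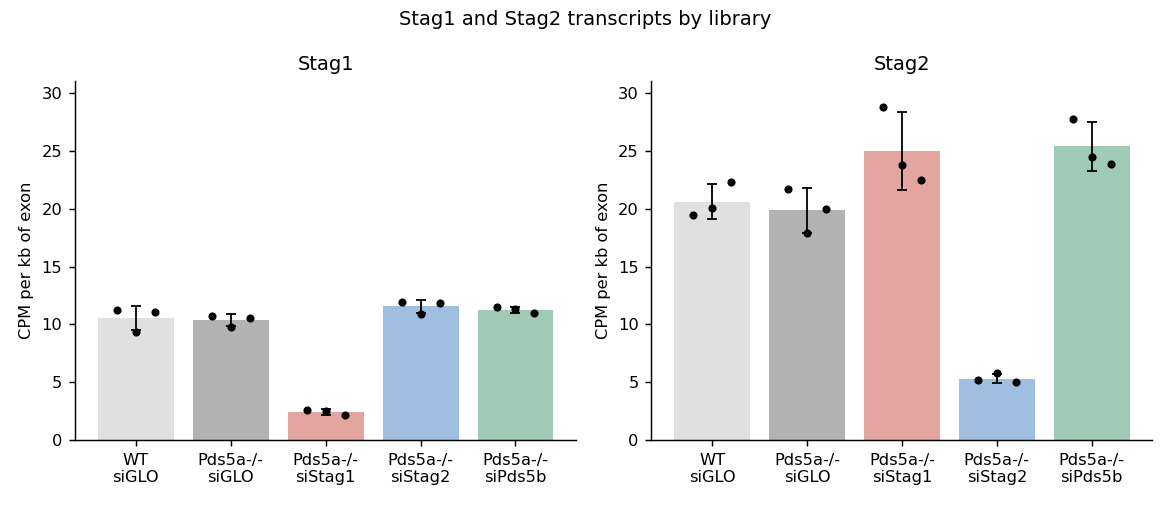
Stag1 and Stag2 levels in CPM per kb of exon in 5 conditions. Bars are means, error bars SD, and points the 3 libraries of each condition; Stag1 is low only in the siStag1 libraries of the conditions drawn, and Stag2 only in the siStag2 libraries.

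Most of the other cohesin genes differed little between the groups. The largest positive changes were in Stag3, Stag2 and Hdac8 (log2 fold change 0.27 for Hdac8, adjusted p = 0.49). Of 11 ring, STAG and PDS5 genes, Stag1 alone was called, and none of the 14 loading, release, acetylation and CTCF genes was. The median log2 fold changes were 0.07 and 0.05, against −0.01 over all genes. Rad21, the kleisin that closes the ring, was at 467.8, 435.3 and 441.7 CPM after siGLO and 422.8, 410.2 and 410.6 CPM after siStag1 (log2 fold change −0.11, adjusted p = 0.54). Nipbl, which loads cohesin, had a log2 fold change of 0.18 (adjusted p = 0.57). Wapal, which releases it, was at −0.02 (adjusted p = 0.96), Ctcf at 0.07 (adjusted p = 0.77) and the acetyltransferase gene Esco1 at 0.11 (adjusted p = 0.69). Smc1a and Smc3 were at 0.09 and 0.08, Pds5b at 0.04, and the meiotic paralog Stag3 at 0.40 (adjusted p = 0.32).

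Across the genome few genes passed the test. Only 14 of 14963 genes were called, 0.0936% of those tested, 2 higher (0.0134%) and 12 lower (0.0802%). The siStag1 and siGLO libraries did not overlap for any of these 14. Over all tested genes, every siStag1 library was above every siGLO library in 8.13% and below in 7.55%. The 14 were picked by a test on the same libraries, so their lack of overlap is no separate support. Stag1 was the only call with a log2 fold change of 1 or more in size. The median log2 fold change over all genes was −0.01 and the median size was 0.12. With the replicate number as a block, 48 genes were called (0.321%), 18 higher (0.12%) and 30 lower (0.2%), and all 14 were among them. The block gives each replicate number 1 effect shared by all 21 libraries, and does not pair siStag1 with siGLO alone. Without the block, an unadjusted p under 0.05 was found for 1598 genes (10.7%), 789 higher (5.27%) and 809 lower (5.41%).

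**Figure D2:**
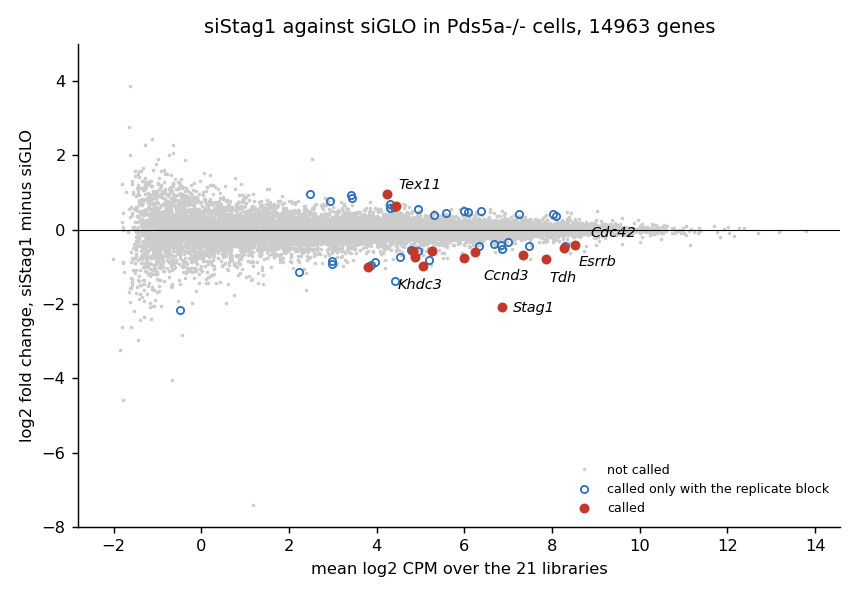
Log2 fold change of siStag1 minus siGLO (y axis) against mean log2 CPM over the 21 libraries (x axis) for the 14963 tested genes. Filled points are the 14 called genes and open circles the 34 called only with the replicate block; nearly all genes lie close to 0, and Stag1 is the lowest of the called genes.

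The number of calls depended on single libraries. It was 4 without siGLO library 2, 5 without siStag1 library 2, 6 without siStag1 library 1, and 3 without library 1 of both groups, an alternative chosen after seeing the data. Stag1, Khdc3 and Ccnd3 were called under all 15 alternatives run for single genes, Tdh under 14 and Mylpf under 12. The remaining 9 were called under 7 to 10, and none of the 14 changed direction. DESeq2 called 72 genes. The paper, which used DESeq2 at the same threshold, reports more genes for this contrast, and the reason for the gap was not tested.

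Of the 12 genes that fell, Esrrb is on the naive pluripotency list. Esrrb, an orphan nuclear receptor that sustains naive pluripotency (chr12:86361117-86521628), was at 313.2, 296.8 and 293.9 CPM after siGLO and 188.2, 212.0 and 238.1 CPM after siStag1. The highest siStag1 library was below the lowest siGLO library (log2 fold change −0.50, SE 0.08, adjusted p = 0.00226). Tdh, the threonine dehydrogenase on which mouse stem cell metabolism relies (chr14:63492347-63509092), was at 239.9, 231.4 and 224.9 CPM after siGLO and 119.1, 134.6 and 150.7 CPM after siStag1. It fell by 0.78 on the log2 scale, a larger gap than the spread within either group (SE 0.11, adjusted p = 0.000668). Khdc3, also called Filia, a KH-domain protein of the oocyte and early embryo (chr9:73101836-73104438), was at 62.2, 60.0 and 58.9 CPM after siGLO and 28.6, 31.5 and 32.7 CPM after siStag1. Its level was 51.2% of that in siGLO (log2 fold change −0.96, SE 0.11, adjusted p = 1.79e-05).

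Ccnd3, which encodes the G1 cyclin D3 (chr17:47505051-47599691), was at 196.2, 201.6 and 196.6 CPM after siGLO and 120.6, 123.8 and 126.1 CPM after siStag1. Both groups were tight and well apart (log2 fold change −0.68, SE 0.07, adjusted p = 6.47e-06). Of the 24 tested genes of the MYC and cyclin list it was the only call: Ccnd2 was at 0.36 (adjusted p = 0.58) and Ccne2 at 0.30 (adjusted p = 0.37). Cdc42, a regulator of the actin cytoskeleton and of cell polarity (chr4:137319696-137357720), was at 384.9, 393.5 and 394.6 CPM after siGLO and 313.6, 286.4 and 286.6 CPM after siStag1. The fall was small but larger than the spread (log2 fold change −0.40, SE 0.07, adjusted p = 0.0032). Sept1, a septin GTPase (chr7:127214447-127233130), was at 72.6, 72.9 and 66.2 CPM after siGLO and 42.3, 47.9 and 50.4 CPM after siStag1 (log2 fold change −0.59, SE 0.09, adjusted p = 0.00133). Mylpf, a regulatory myosin light chain of fast skeletal muscle, lies next to it on the opposite strand (chr7:127208890-127214298) and was at 83.4, 90.8 and 82.6 CPM after siGLO and 44.0, 54.2 and 54.0 CPM after siStag1. It too had no overlap between groups (log2 fold change −0.76, SE 0.11, adjusted p = 0.00164). Whether reads were counted by strand is not given in the sources used here, so adjacent genes such as these, and Ccnd3, Tdh and Sept1 with the opposite-strand genes Bysl, Gm17232 and Zfp553, may share reads.

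Cisd3, an iron-sulfur protein of mitochondria (chr11:97685826-97688621), was at 23.8, 26.4 and 23.7 CPM after siGLO and 17.4, 15.8 and 16.4 CPM after siStag1 (log2 fold change −0.57, SE 0.09, adjusted p = 0.00226). Nup62cl, an X-linked gene named for its likeness to a nucleoporin (chrX:140006805-140062712), was at 52.2, 61.0 and 58.2 CPM after siGLO and 38.0, 39.2 and 37.0 CPM after siStag1 (log2 fold change −0.59, SE 0.10, adjusted p = 0.0038). In both genes the siStag1 libraries were close together and below every siGLO library. Phf11d, a PHD-finger gene with near-identical copies beside it (chr14:59347407-59365470), had a log2 fold change of −0.74 (SE 0.12, adjusted p = 0.0038). The processed pseudogene 2210409E12Rik, which overlaps Coil on the same strand (chr11:88972657-88973002), had a log2 fold change of −0.998 (SE 0.16, adjusted p = 0.00285). The values of Phf11d and 2210409E12Rik are uncertain because reads may be divided among copies or overlapping genes, and Khdc3 overlaps Gm20509 on the same strand.

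Only 2 genes rose past the threshold. Tex11, an X-linked gene of meiotic recombination in the male germline (chrX:100838648-101059667), was at 14.6, 12.7 and 13.1 CPM after siGLO and 27.5, 26.2 and 24.9 CPM after siStag1. Every siStag1 library was well above every siGLO library (log2 fold change 0.96, SE 0.15, adjusted p = 0.00285). Dtx4, an E3 ubiquitin ligase of the Deltex family linked to Notch and interferon signaling (chr19:12466338-12501454), was at 22.8, 22.9 and 20.1 CPM after siGLO and 34.1, 37.6 and 30.9 CPM after siStag1. It rose by 1.56-fold, with no overlap (log2 fold change 0.64, SE 0.10, adjusted p = 0.00244).

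**Figure D3:**
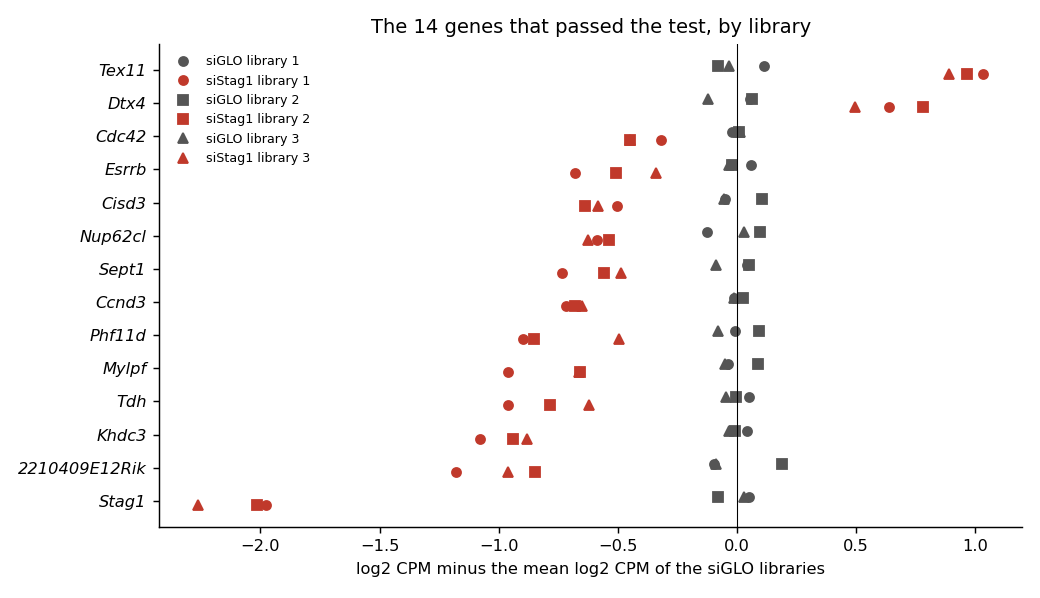
The 14 called genes by library, as log2 CPM minus the mean log2 CPM of the siGLO libraries (x axis). Grey points are siGLO and red points siStag1, with a symbol for each library number; the red and grey points of each gene do not overlap, and Tex11 and Dtx4 are the genes to the right of 0.

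The naive pluripotency list lay below 0 on balance. Of its 18 members, all tested, 17 had a negative log2 fold change, and the median was −0.31 (quartiles −0.49 and −0.12) against −0.01 over all genes. The list medians of siStag1 libraries 1 to 3, relative to the siGLO mean, were −0.45, −0.29 and −0.23, while those of siGLO libraries 1 to 3 were 0.01, −0.01 and −0.03. In 10 of the 18 (55.6%) every siStag1 library was below every siGLO library, which held for 7.55% of all tested genes. Esrrb was the only member called. With the replicate block Prdm14 and Nanog were called as well.

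Prdm14, which represses differentiation genes and DNA methylation in naive cells, was at 14.6, 15.8 and 16.97 CPM after siGLO and 5.53, 8.69 and 11.7 CPM after siStag1. All siStag1 libraries were lower (log2 fold change −0.87, SE 0.17, adjusted p = 0.017, and 0.00291 with the block). Nanog, a core factor whose level varies between stem cells, was at 285.5, 326.5 and 337.6 CPM after siGLO and 183.6, 240.6 and 273.4 CPM after siStag1. The groups did not overlap, although siStag1 library 3 came close to siGLO library 1 (log2 fold change −0.45, SE 0.13, adjusted p = 0.15, and 0.0032 with the block). Tbx3, a T-box factor of the LIF circuit, had a log2 fold change of −0.94 (adjusted p = 0.0133, and 0.0153 with the block), and Tfcp2l1, a naive-state activator, one of −0.80 (adjusted p = 0.0718). Klf2 was at −0.62 (adjusted p = 0.0839) and Zfp42, the marker Rex1, at −0.36 (adjusted p = 0.106). These genes were not called in either fit, and Klf2 and Zfp42 were named after their values were seen.

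The general pluripotency list had no such downward median. Pou5f1, which encodes OCT4, was at 1244, 1151 and 1072 CPM after siGLO and 1225, 1149 and 1083 CPM after siStag1, and the groups overlapped fully (log2 fold change 0.00, adjusted p = 0.994). Sox2 had a log2 fold change of 0.02 (adjusted p = 0.942). The median of the 17 members was 0.08, and none was called. Lin28b, a regulator of let-7 maturation, was at 0.37 (adjusted p = 0.0761), Fgf4 at −0.32 (adjusted p = 0.192) and the alkaline phosphatase gene Alpl at −0.39 (adjusted p = 0.408).

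Genes of the formative and primed states, which stem cells express as they leave naive pluripotency, were on balance higher. Of 19 tested members 14 had a positive log2 fold change, the median was 0.25 and 7 had an unadjusted p under 0.05 in that direction, which 5.27% of all tested genes had, but none was called and 1, Lefty2, was called with the block. The largest change in size went the other way: Dkk1 was at −1.47 (adjusted p = 0.0804), at a low mean log2 CPM of 0.62. All its siStag1 libraries were below all siGLO libraries. T was also negative, at −0.69 (SE 0.83). Sall2 was at 17.7, 16.0 and 13.9 CPM after siGLO and 24.6, 30.1 and 22.03 CPM after siStag1 (log2 fold change 0.69, adjusted p = 0.134). Fgf5, the classical marker of the primed epiblast, was at 1.90, 1.32 and 0.88 CPM against 2.30, 3.08 and 1.64 CPM and overlapped (adjusted p = 0.605). Libraries of 1 group already differed in this list: its median was 0.25 in siGLO library 1 and −0.20 in siGLO library 3, beside 0.50, 0.41 and 0.27 in the siStag1 libraries. The part of this spread in the shift was not tested.

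**Figure D4:**
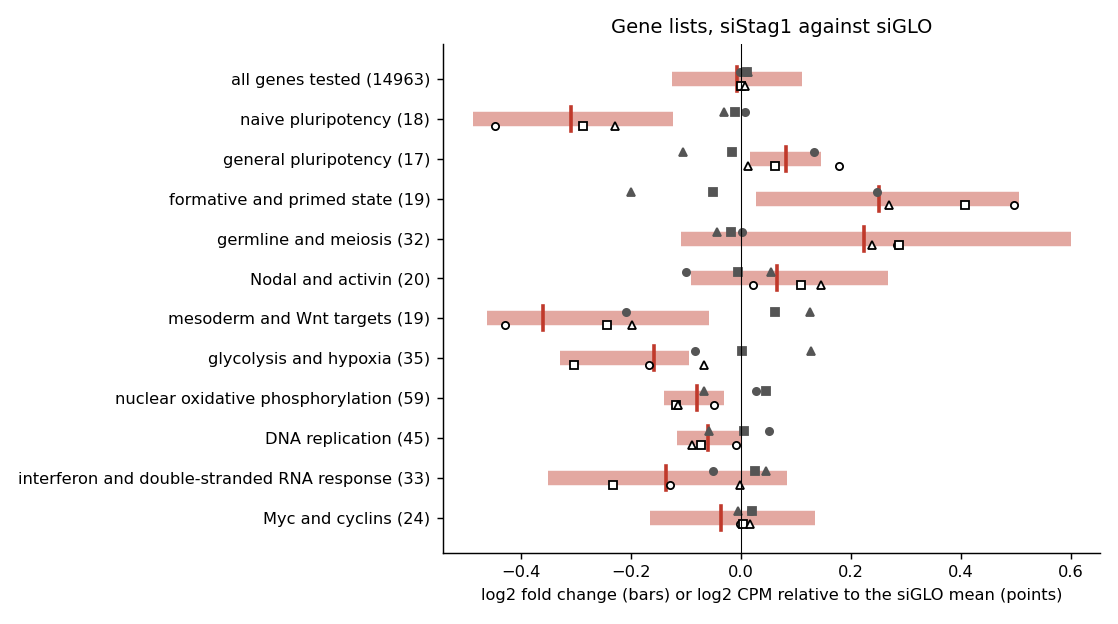
Gene lists, siStag1 against siGLO, with the number of tested members in brackets. Red ticks are list medians of the log2 fold change and pink bars the quartiles; grey points are siGLO and open points siStag1 libraries (circle, square and triangle for libraries 1 to 3), as the list median of log2 CPM relative to the siGLO mean. The naive pluripotency points of siStag1 lie left of all siGLO points, and those of the germline list to the right.

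Germline and meiosis genes, most of which are kept silent by DNA methylation and by repressors in somatic cells, lay above 0 on balance. Of 36 members in the files 32 were tested. Of these 32, 20 had a positive log2 fold change (62.5%), against 48.3% of all tested genes. The median of the 32 was 0.22 (quartiles −0.11 and 0.60). By library, the list median was 0.28, 0.29 and 0.24 in siStag1 libraries 1 to 3 and 0.00, −0.02 and −0.04 in siGLO libraries 1 to 3. In 11 of the 32 (34.4%) every siStag1 library was above every siGLO library, against 8.13% of all tested genes, and in 5 (15.6%) every one was below, against 7.55%. Tex11 was the only member called. With the block, Stk31, Taf7l, Mov10l1 and Piwil2 were called higher too, and Prdm14, which is also on this list, lower.

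Stk31, a kinase-like gene of the testis, was at 6.20, 6.23 and 5.79 CPM after siGLO and 10.8, 11.1 and 11.1 CPM after siStag1. Each group was tight, and they were well apart (log2 fold change 0.85, SE 0.17, adjusted p = 0.0201, and 0.00291 with the block). Taf7l, an X-linked germ cell variant of a TFIID subunit, was at 5.64, 6.09 and 5.54 CPM after siGLO and 10.6, 12.3 and 11.1 CPM after siStag1 (log2 fold change 0.97, SE 0.19, adjusted p = 0.0201, and 0.00511 with the block). Mov10l1, the RNA helicase that feeds the piRNA pathway, was at 19.4, 16.9 and 17.5 CPM against 25.8, 30.6 and 29.8 CPM (log2 fold change 0.68, SE 0.15, adjusted p = 0.038, and 0.00796 with the block). Piwil2, a PIWI protein that binds piRNAs, was at 27.4, 24.4 and 21.1 CPM against 37.8, 35.0 and 34.7 CPM (log2 fold change 0.56, SE 0.14, adjusted p = 0.0743, and 0.00291 with the block). In Taf7l, Mov10l1 and Piwil2 the groups did not overlap either. The helicase gene Ddx4 was at 0.57 (adjusted p = 0.038, and 0.0153 with the block), and Tdrd1, a Tudor partner of PIWI proteins, at 0.67 (adjusted p = 0.0668, and 0.0342 with the block). Apart from Tex11, Taf7l and Prdm14, these germline genes were named after their values were seen.

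Promoters of several of these genes hold the palindromic E-box CACGTG, which reads the same on both strands. It was searched for in the 250 bases before the start of each gene in RefSeq's promoter table (GRCm38.p6). The 5 windows shown are those of list members with the motif and an unadjusted p under 0.001, with CACGTG in capitals, written along the gene's own strand: Stk31 at chr6:49395454-49395519, Taf7l at chrX:134476504-134476569, Mov10l1 at chr15:88982744-88982783, Ddx4 at chr13:112652311-112652369 and Tdrd1 at chr19:56826168-56826208. Stk31, Mov10l1 and Tdrd1 lie on the plus strand.
Stk31: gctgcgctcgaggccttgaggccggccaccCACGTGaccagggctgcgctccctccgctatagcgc
Taf7l: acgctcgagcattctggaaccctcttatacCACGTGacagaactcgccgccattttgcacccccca
Mov10l1: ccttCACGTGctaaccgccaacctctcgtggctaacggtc
Ddx4: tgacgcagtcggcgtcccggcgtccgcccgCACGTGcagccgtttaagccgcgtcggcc
Tdrd1: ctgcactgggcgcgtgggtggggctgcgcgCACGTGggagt

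Of 26 tested germline members with an entry in the table, 11 (42.3%) hold the motif, as do 1070 of 10917 tested genes (9.8%) and 1978 of all 32851 promoters (6.02%). All 11 had a positive log2 fold change after siStag1, from 0.16 to 0.97 with a median of 0.58, and 10 of them had an unadjusted p under 0.05 in that direction, as did 73 of the 1070 tested genes with the motif and 5.27% of all tested genes. Of the 15 members without it 7 were positive, with a median of −0.01. Over all tested genes the medians were 0.00 with the motif and −0.01 without it. Beyond the 5 shown, the 11 include Mael (log2 fold change 0.58), Sycp1 (0.51), Hormad1 (0.35), Slc25a31 (0.69), Stag3 (0.40) and Sycp3 (0.16). The split by motif was made after the values were seen and was not tested, and a match in a window says nothing about which factor binds there. Tex11, Piwil2 and Prdm14 have no entry in the table.

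The Nodal and activin list held calls in both directions once the block was used, 3 of 20 members higher and 1 lower. Over all tested genes the shares with the block were 0.12% higher and 0.2% lower. Inhbb, which encodes the beta B subunit of activins and inhibins, was at 15.6, 16.1 and 16.9 CPM after siGLO and 5.18, 6.06 and 7.24 CPM after siStag1. Every siStag1 library was below every siGLO library (log2 fold change −1.39, SE 0.26, adjusted p = 0.0201, and 0.00884 with the block). Skil, a SMAD co-repressor that is itself a target of the pathway, was at 273.4, 228.0 and 282.0 CPM after siGLO and 334.9, 338.4 and 346.6 CPM after siStag1 (log2 fold change 0.38, SE 0.07, adjusted p = 0.0139, and 0.00305 with the block). The Nodal antagonists Lefty1 and Lefty2 overlapped between groups but were higher than the same-numbered siGLO library each time: Lefty1 was at 204.6, 278.4 and 213.9 CPM against 250.1, 358.8 and 318.7 CPM (adjusted p = 0.452, and 0.00446 with the block). Lefty2 had a log2 fold change of 0.51 (adjusted p = 0.247, and 0.00796 with the block). None of the members was called without the block, and the median of the 20 members was 0.07.

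Mesoderm and Wnt target genes were lower on balance, with a median of −0.36 over 19 tested members, 4 of which were positive, and no call. Axin2, a direct target of Wnt signaling, was at 14.7, 19.3 and 23.9 CPM after siGLO and 12.4, 12.6 and 15.6 CPM after siStag1, and the groups overlapped (log2 fold change −0.51, adjusted p = 0.225). Cdx1 was called only with the block (log2 fold change −1.15, adjusted p = 0.551, and 0.00283 with the block), at 1.95, 5.76 and 6.96 CPM against 0.83, 3.14 and 2.73 CPM. The mesoderm factor T was at −0.69 with an SE of 0.83. The list median was −0.21 in siGLO library 1, beside −0.43, −0.24 and −0.20 in the siStag1 libraries.

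Markers of other lineages were not called. The neuroectoderm list had a median of 0.06 over 20 tested genes, with Pax6, a neural transcription factor, at 0.63 (adjusted p = 0.40) and Nes, the intermediate filament of neural progenitors, at 0.47 (adjusted p = 0.372, and 0.0153 with the block). The endoderm factors Gata6 and Sox17 were at −0.20 (adjusted p = 0.918) and −0.07 (adjusted p = 0.98), and for both genes library 1 was the highest of its group in siGLO and in siStag1.

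Metabolic and replication lists had medians closer to 0. The glycolysis and hypoxia list had a median of −0.16 over 35 tested genes, 6 of them positive, and no call. Its largest changes were Ndrg1 at −0.67 (adjusted p = 0.548), Eno2 at −0.52 (adjusted p = 0.433) and the growth factor Vegfa at −0.49 (adjusted p = 0.136). The nuclear genes of oxidative phosphorylation had a median of −0.08, with 10 of 59 positive. Sdhb and Sdhd of complex II were at −0.31 and −0.29 and Ndufb5 of complex I at −0.24, all uncalled. Of 45 DNA replication genes 12 were positive and the median was −0.06, with Cdc45 at −0.29, Mcm3 at −0.21 and Orc1 at −0.19. Every siStag1 library was below every siGLO library in 9 of the 35 glycolysis genes (25.7%) and 17 of the 59 oxidative phosphorylation genes (28.8%). The same held for 9 of the 45 replication genes (20%), against 7.55% of all tested genes. No gene of these lists had every siStag1 library above every siGLO library, against 8.13% of all tested genes. The interferon list had a median of −0.14 over 33 genes, and its largest named changes were Isg15 at −1.01 (adjusted p = 0.453), Oas1a at −0.82 (adjusted p = 0.0937) and Oasl1 at −0.58 (adjusted p = 0.466).

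Of the remaining genes called only with the block, those given here were named after their values were seen, and others are not described. The axon guidance ligand Ntn1 was at 18.96, 21.2 and 24.0 CPM after siGLO and 12.2, 11.4 and 13.1 CPM after siStag1, a clear separation (log2 fold change −0.81, SE 0.17, adjusted p = 0.037, and 0.000758 with the block). Calcoco2, a receptor of selective autophagy, was at 15.8, 17.1 and 19.3 CPM against 7.19, 9.59 and 10.2 CPM (log2 fold change −0.95, adjusted p = 0.0113, and 0.00533 with the block). The Src-family kinase gene Yes1 was at −0.38, the mitochondrial superoxide dismutase gene Sod2 at −0.33, the mitochondrial adenylate kinase gene Ak4 at −0.52 and the carnitine carrier gene Slc25a20 at −0.56. Higher were Has2, a hyaluronan synthase, at 0.94, the tyrosine phosphatase gene Ptpn13 at 0.45, the transcription factor gene Myrf at 0.50 and Foxp1 at 0.47.

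The same 13 genes other than Stag1 can be set beside the other siRNAs in Pds5a-/- cells. All 3 siRNAs were compared with the same siGLO libraries, so the values share their controls and their likeness is not independent support. siStag2 gave 335 calls (2.24%), of which 190 were lower (1.27%), and 677 calls (4.52%) with the block; siPds5b gave 1136 (7.59%), of which 537 were lower (3.59%). Of the 13 genes, 10 were called lower after siStag2 and 8 after siPds5b, and none was called higher. The siStag2 count was 115 and 128 without siGLO library 1 or 2 and 68 and 158 without siStag2 library 1 or 3, and the siPds5b count 689 without siGLO library 2 and 710 without siPds5b library 2. Esrrb was at −0.50 after siStag1, −0.72 after siStag2 and −1.43 after siPds5b. Tdh was at −0.78, −0.98 and −1.34, Sept1 at −0.59, −0.91 and −1.36, and Ccnd3 at −0.68, −0.76 and −1.002 in that order. Khdc3 and Mylpf were lowest after siStag2, at −1.24 and −1.17, against −0.96 and −0.76 after siStag1 and −0.70 and −1.08 after siPds5b. Cdc42 was at −0.40 after siStag1 but −0.06 after siStag2 and −0.05 after siPds5b, and Tex11 at 0.96, 0.23 and 0.22. Against siGLO, the siStag1 call of Cdc42 held under only 7 of the 15 alternatives and that of Tex11 under 9.

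**Figure D5:**
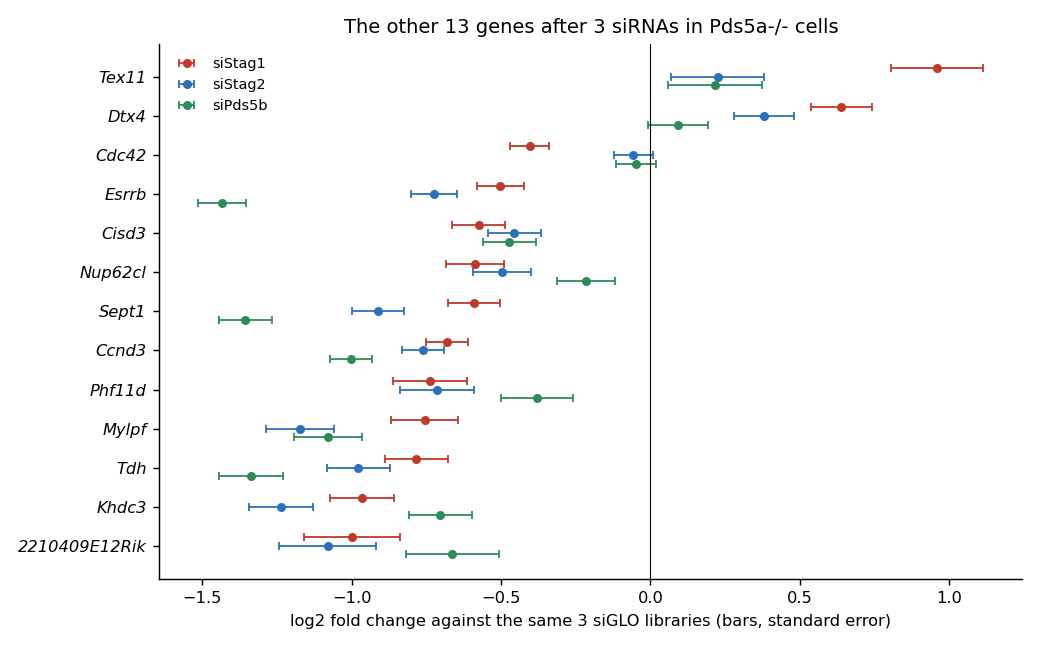
Log2 fold change against the same siGLO libraries (x axis) for 13 called genes after siStag1 (red), siStag2 (blue) and siPds5b (green), with standard errors. Cdc42 is at −0.40 for siStag1 and at −0.06 and −0.05 for siStag2 and siPds5b, Tex11 is at 0.96, 0.23 and 0.22 in the same order, and Esrrb, Sept1 and Tdh are lowest after siPds5b.

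Direct tests between siRNAs do not use the shared controls. Between siStag1 and siStag2, 59 genes were called (0.394%), 34 higher (0.227%) and 25 lower (0.167%) after siStag1, among them Stag1 and, of the other 13 genes, Cdc42 alone. Leaving out siStag1 library 1, 2 or 3 left 12, 12 and 18 calls, and leaving out siStag2 library 1, 2 or 3 left 6, 10 and 11. Cdc42 was at 348.9, 404.6 and 374.4 CPM after siStag2, above all siStag1 libraries (log2 difference −0.35, SE 0.07, adjusted p = 0.00776). Tex11 was at 14.7, 14.9 and 17.6 CPM after siStag2, also without overlap, but just missed the threshold (log2 difference 0.74, SE 0.15, adjusted p = 0.0137). Of the germline list Stk31 passed, with 5.66, 6.08 and 6.09 CPM after siStag2 (log2 difference 0.89, SE 0.17, adjusted p = 0.00776), while Taf7l was at 0.80 (adjusted p = 0.0281). Of the naive list only Klf4 passed (log2 difference 0.43, adjusted p = 0.00613). Elsewhere, Axin2 was lower after siStag1 than after siStag2 (log2 difference −0.94, adjusted p = 0.00696). Pou5f1 was higher (0.41, adjusted p = 0.0095), as were Sod2 (0.46, adjusted p = 0.00114), Has2 (1.18, adjusted p = 0.00776) and Stag2, the target of siStag2. Esrrb differed by 0.22 between siStag1 and siStag2, with an SE of 0.08 (adjusted p = 0.117). For the 11 motif-bearing germline genes the median against siGLO was 0.58 after siStag1, 0.18 after siStag2 and 0.14 after siPds5b, and Tdrd1 was at 0.67, 0.86 and 0.70. Unlike the direct tests, these medians share the siGLO libraries. The set was split off after its siStag1 values were seen, so the medians do not compare the siRNAs fairly, and their order was not tested.

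Between siStag1 and siPds5b, 1102 genes were called (7.36%), 529 higher (3.54%) and 573 lower (3.83%) after siStag1. The count was 647, 632 and 693 without siStag1 library 1, 2 or 3, and 596 and 687 without siPds5b library 2 or 3. Of the 13 genes, 7 were called. Esrrb was at 113.3, 106.2 and 115.2 CPM after siPds5b, far below the siStag1 libraries (log2 difference 0.93, SE 0.08, adjusted p = 3.63e-08). Sept1 (0.76), Tdh (0.55), Dtx4 (0.55), Tex11 (0.74) and Ccnd3 (0.32) were also higher after siStag1, and Cdc42 was lower (−0.36, adjusted p = 0.000684). In the naive list 8 of 18 members were called higher after siStag1 and none lower, including Klf4 (1.35), Prdm14 (1.16) and Nanog (0.51). In the germline list 7 of 32 were called higher and 1 lower, with Taf7l at 1.11, Stk31 at 0.72 and Ddx4 at 0.48.

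Against WT siGLO cells, where the genotype differs as well as the siRNA, 2991 genes were called (20%), 1589 higher (10.6%) and 1402 lower (9.37%) in Pds5a-/- siStag1. Of the 14 genes, 2 were called higher, Dtx4 and Nup62cl, and 10 lower. Nup62cl, which fell after siStag1, was at 29.79, 25.75 and 25.54 CPM in WT cells, below both Pds5a-/- groups. Khdc3 was at 39.46, 37.23 and 33.8 CPM in WT cells, between the siStag1 and the Pds5a-/- siGLO libraries. Esrrb was at 545.8, 561.2 and 512.4 CPM in WT cells, so that the Pds5a-/- siGLO libraries lay between WT and siStag1. The same order held for Tdh, with 380.5, 481.7 and 477.3 CPM in WT cells, for Sept1, with 158.3, 132.7 and 137.9 CPM, and for Prdm14, with 31.5, 30.6 and 27.5 CPM. Inhbb was at 74.1, 41.5 and 45.6 CPM in WT cells, above both Pds5a-/- groups. Tex11 differed, since WT cells were at 24.6, 15.1 and 18.0 CPM, between the Pds5a-/- siGLO and the siStag1 libraries. Stk31 was higher in WT cells, at 20.4, 13.3 and 14.1 CPM, than in either Pds5a-/- group.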

How the data were processed

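The authors prepared poly-A libraries from Pds5a-/- and other mESCs, mapped them with STAR (mm10) and deposited 1 table of raw counts per gene symbol for each library. How reads were counted, on which gene models and with which strand setting is not given in the sources used here. All 21 libraries (23412 symbols) were normalized by TMM and fitted in 1 edgeR 4.0.16 quasi-likelihood model in R 4.3.3, with genes kept by edgeR's filter over the conditions, robust dispersion and an adjusted p under 0.01 as the call. DESeq2 1.42.0 on the same design, 2 other scalings, 2 other filters, fewer libraries in the fit, other thresholds, each library left out and a replicate block were the alternatives. Fits on simulated counts were checked first.

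Same-numbered siStag1 and siGLO libraries deviated together from their group means over 12176 genes (r = 0.591, 0.149 and 0.516). On these values the numbers were taken to pair the libraries. The median of −0.247 for other pairs is no separate reference, because deviations from a group mean cancel within each group. That pairing comes from the data, since the labels give only the number. The block applies the numbers to all 21 libraries. They did not pair siStag1 with siStag2 (r = 0.002, −0.021 and 0.263) or with WT siGLO libraries (r = 0.194, 0.008 and −0.034). Levels per kb used exon lengths of GENCODE vM21 on GRCm38, and coordinates are from there. Of the symbols, 21777 matched directly, 1297 through another symbol and 338 not at all. Genes were named if they belonged to the cohesin lists, were called, were among the 3 largest changes of a described list (those whose mean log2 CPM was 1 or more), were preset lineage markers, or were among the 6 called genes with the smallest adjusted p in each direct contrast. Outside this rule, some of the genes called only with the block (Skil and Lefty1 among them), Klf2, Klf4, Zfp42, Dkk1 and the further germline genes were named after their values were seen. The members, gene lists and tests were chosen with earlier results of these data known. The siRNA sequences were not used here.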

Additional observations from a re-analysis of the deposited data

How the results depend on the processing

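Stag1 was called under all 15 alternatives, with log2 fold changes from −2.14 to −1.997, also when each library was left out in turn. The count of 14 called genes depended more on the settings. It was 72 with DESeq2 (32 higher, 40 lower), 8 with only the conditions compared in the fit, 48 with the replicate block, 50 and 138 at adjusted p under 0.05 and 0.1, 1 where a log2 fold change of 1 or more was also required, 3 without library 1 of both groups (chosen after seeing the data), and 4 to 14 with 1 library left out. For siStag1 against siStag2 (59) it was 275 with DESeq2, 93 with the conditions compared, 24 with the 4 Pds5a-/- conditions, 276 with the replicate block (the numbers do not pair these libraries), 358, 974 and 15 at the other thresholds, and 6 to 18 with 1 library left out. For siStag1 against siPds5b (1102) it was 651 with the conditions compared, 2252, 3218 and 344 at the other thresholds, and 596 to 944 with 1 library left out. For siStag2 against siGLO (335) it was 775 with DESeq2, 99 with the conditions compared, 165 with the 4 Pds5a-/- conditions, 677 with the block, 1196, 2044 and 47 at the other thresholds, and 68 to 375. For siPds5b against siGLO (1136) it was 524 with the conditions compared, 2353, 3245 and 377 at the other thresholds, and 689 to 946. Against WT siGLO (2991) it was 4664, 5759 and 1095 at the other thresholds, and 2128 to 2509, and the fit to the 4 Pds5a-/- conditions could not be run. The causes were not tested, and the leave-one-out fits hold fewer samples.

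Of the named genes 14 changed sign under some alternative, none of them a called gene. Without library 1 of both groups Mau2 was at 0.013, Wapal at 0.0044, Pttg1 at 0.029, Chtf18 at −0.045, Pou5f1 at 0.0074 and Klf4 at 0.0012. Pou5f1 was at 0.0023 with DESeq2, 0.0021 with RLE scaling and 0.0014 with the conditions compared. With 1 library left out the log2 fold changes ran from −0.102 to 0.928 for Rad21l, −0.247 to 0.0185 for Rec8, −0.0114 to 0.163 for Pds5a, −0.0435 to 0.126 for Pds5b, −0.0227 to 0.0204 for Mau2, −0.098 to 0.0534 for Wapal, −0.0985 to 0.0706 for Sgol1, −0.0659 to 0.028 for Pttg1, −0.0567 to 0.113 for Chtf18, −0.0534 to 0.0586 for Pou5f1, −0.0153 to 0.110 for Sox2, −0.81 to 0.228 for Gata6 and −0.773 to 0.499 for Sox17. Over 15 alternatives the list medians ran from −0.38 to −0.24 for naive pluripotency, 0.16 to 0.30 for germline, 0.20 to 0.47 for formative and primed, −0.41 to −0.20 for mesoderm and Wnt, −0.25 to −0.12 for glycolysis, −0.55 to −0.17 for trophoblast and −0.70 to −0.056 for fibroblast genes. Of the lists described with their members, those whose median changed sign under 1 or more alternatives were the interferon (−0.20 to 0.0012), neuroectoderm (−0.085 to 0.15), general pluripotency (−0.0086 to 0.14), cohesin ring (−0.011 to 0.11) and MYC and cyclin lists (−0.047 to 0.0020).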

Other observations

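The other 26 gene lists examined, from Hox clusters and protocadherins to ribosomal proteins and sterol synthesis, held no called gene in siStag1 against siGLO, and 1 of them held a call with the replicate block, Ntn1 of the axon guidance list. Their median log2 fold changes ran from −0.31 for trophoblast genes to 0.10 for genes of FGF and ERK signaling. In the fibroblast list, whose median was −0.30, library 1 was low in both groups: its list median was −0.78 in siGLO library 1 and −0.96 in siStag1 library 1, against 0.39 and 0.08 in library 3.

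Lyz2, the lysozyme of myeloid cells, had 67, 68 and 110 counts in siGLO libraries 1 to 3 and 1, 0 and 0 counts in siStag1 libraries 1 to 3, and was not called. Libraries of 1 group differed after siStag2, with 79, 1 and 0 counts, after siPds5b, with 47, 0 and 0 counts, and in Pds5b-/- siGLO, with 1, 136 and 192 counts. It had 67, 77 and 57 counts in WT siGLO and 0, 1 and 0 in WT siPds5b. The fibroblast proteoglycan gene Dcn had 4, 10 and 71 counts after siGLO and 0, 1 and 3 after siStag1. Saa3, an acute-phase gene, had 25, 22 and 20 counts after siGLO and 5, 5 and 4 after siStag1, and was called only with the block.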
